A study of Mus musculus with 30 samples.

Results

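Expression of 7 subunits of the GABA-A receptor was compared between transduced mouse glioblastomas and normal mouse brain. The members were Gabra2, Gabra3, Gabra4 and Gabra5 (alpha subunits), Gabrb1 and Gabrb2 (beta subunits) and Gabrd (the delta subunit). They were found by their symbols among the probe sets that name a single gene, and for a gene with several such probe sets the brightest on average across the 30 arrays was used. All 7 were measured, out of 19938 genes. Only Gabrb2 had more than 1 such probe set. Members were chosen by name, and no filter on low values was applied.

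The GABA-A receptor is a chloride channel of 5 subunits that opens when it binds GABA, the main inhibitory transmitter of the adult brain. Most receptors combine alpha and beta subunits, which form the GABA site, with a gamma or a delta subunit. Receptors with a gamma subunit gather at synapses through the scaffold protein gephyrin, whereas receptors with the delta subunit, and many with alpha5, lie outside synapses and carry a sustained current. In adult brain these subunits are mainly neuronal, although astrocytes and precursor cells also carry some.

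The 30 arrays, which held total RNA of dissected tissue, fell into 7 groups. The tumor groups are named by the promoter given beside Cre recombinase in the labels and by the site of injection. They were GFAP tumors of the subventricular zone (SVZ, 3 arrays), NES tumors of the hippocampus (4 arrays), GFAP tumors of the hippocampus (7 arrays), SYN1 tumors of the cortex (4 arrays) and GFAP tumors of the cortex (4 arrays). Normal hippocampus and normal cortex (4 arrays each) served as references, and there was no normal SVZ. The GFAP promoter is active in astrocytes and neural stem cells, the NES (nestin) promoter in neural progenitors, and the SYN1 (synapsin) promoter in neurons. The tumor-inducing vector, and the strain, age and sex of the mice, are not given in the sources used here. The labels do not state whether arrays of a group stem from different mice. All p-values therefore reflect the spread of these arrays only, which could be technical.

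RefSeq (build GRCm38.p6) gave 10 windows of the 250 bases before a transcript start for 6 members. Gabrd had no entry and is only named. A window each is given for Gabra5 and Gabra2, the subunits furthest below normal tissue in GFAP hippocampus tumors and for the 2 beta subunits. Capitals mark matches, on either strand, to a TATA box (TATAAA), a GC box (GGGCGG), a cyclic AMP response element (TGACGTCA), the core of an NRF1 site (CGCATGCG) or an EGR site (GCGTGGGCG).
Gabra5, minus strand, chr7:57510060-57510309: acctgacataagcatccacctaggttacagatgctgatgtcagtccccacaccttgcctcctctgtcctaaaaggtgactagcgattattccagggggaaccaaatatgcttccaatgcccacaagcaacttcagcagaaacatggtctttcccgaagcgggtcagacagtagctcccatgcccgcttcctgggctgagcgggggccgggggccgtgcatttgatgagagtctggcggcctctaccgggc
Gabra2, minus strand, chr5:71095850-71096099: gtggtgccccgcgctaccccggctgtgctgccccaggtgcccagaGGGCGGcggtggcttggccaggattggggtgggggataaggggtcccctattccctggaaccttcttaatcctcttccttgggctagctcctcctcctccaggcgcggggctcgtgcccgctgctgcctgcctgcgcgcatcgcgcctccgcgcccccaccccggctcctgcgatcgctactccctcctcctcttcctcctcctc
Gabrb1, plus strand, second listed start, chr5:71699682-71699931: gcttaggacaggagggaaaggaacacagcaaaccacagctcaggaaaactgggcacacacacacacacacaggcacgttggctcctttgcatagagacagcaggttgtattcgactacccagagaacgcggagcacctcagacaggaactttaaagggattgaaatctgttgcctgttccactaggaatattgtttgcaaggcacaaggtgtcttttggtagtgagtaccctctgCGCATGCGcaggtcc
Gabrb2, plus strand, first listed start, chr11:42420190-42420439: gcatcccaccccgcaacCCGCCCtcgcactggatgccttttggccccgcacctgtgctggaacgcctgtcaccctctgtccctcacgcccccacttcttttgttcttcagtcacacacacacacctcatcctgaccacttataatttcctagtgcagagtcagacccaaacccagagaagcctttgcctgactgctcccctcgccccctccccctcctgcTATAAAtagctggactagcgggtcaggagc
The Gabra5 window held none of these letter strings. Gabra2 held a GC box and had a GC content of 70%, against a median of 52.4% over all 32851 windows. The Gabrb1 window held the NRF1 core, and the Gabrb2 window a GC box on the opposite strand and a TATA box near the start. The other listed windows of Gabrb1 and Gabrb2 held none of these strings. Shares over all windows are per window, so a gene with several windows had several chances of a match. Among all windows, 32.7% held a GC box, 12.4% a TATA box, 1.55% a cyclic AMP response element, 1.55% an NRF1 core and 0.536% an EGR site. Gabra2, Gabra4 and Gabrb1 lie on chromosome 5, where the first Gabrb1 start and the Gabra4 start lie 387 bases apart on opposite strands and the transcribed stretches overlap at their 5' ends. A match describes letters and shows no binding.

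The array medians lay between 7.03 and 7.30 on the log2 scale. GFAP cortex tumor 1 stood apart: its mean correlation with the other arrays of its group was 0.868, against 0.925 to 0.948 for those arrays, and its interquartile range was 1.88. GFAP hippocampus tumors 5 to 7 had interquartile ranges of 2.18 to 2.40, against 2.63 to 3.03 for tumors 1 to 4 of that group. Hippocampus tumor 5 had a mean correlation of 0.889 with its group, against 0.930 to 0.948 for the others. Counts of members, and other results these arrays moved most, are given with and without them. Cell cycle markers, which check the tumor label, were higher than in normal tissue for 7 of 7 genes in each of the 4 tumor groups that had normal tissue of their region (limma, adjusted p under 0.05). Their mean was 7.57, 8.81 and 8.63 in GFAP hippocampus tumors 5 to 7 and 9.89 to 10.33 in tumors 1 to 4, against 6.70 to 6.80 in normal hippocampus.

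The subunits were lower than in normal brain in 3 of the 4 tumor groups that had normal tissue of their region, and most did not pass the test in NES tumors. limma called 7 of 7 members lower in SYN1 cortex tumors (20.5% of all genes were called lower in that comparison), 7 of 7 in GFAP cortex tumors (18.8%) and 7 of 7 in GFAP hippocampus tumors (25.2%). In NES hippocampus tumors 1 of 7 was called lower, Gabra5, a subunit abundant in hippocampal neurons (2.86%). The median log2 difference of the members was -3.41 in SYN1 cortex tumors, -2.35 in GFAP cortex tumors, -2.48 in GFAP hippocampus tumors and -0.88 in NES hippocampus tumors, and that of all genes was -0.04, -0.10, -0.08 and -0.04 in the same order. The cortex comparisons share their normal arrays, as do the hippocampus comparisons. In bulk tissue, fewer cells of a type and less RNA per cell cannot be told apart. Markers of neurons moved with the subunits: the mean log2 signal of 10 neuron markers was 9.17 to 10.28 in SYN1 cortex tumors and 8.44 to 11.35 in GFAP cortex tumors, against 12.15 to 12.41 in normal cortex. In the hippocampus it was 11.01 to 11.97 in NES tumors and 9.74 to 11.19 in GFAP tumors, against 11.89 to 12.19 in normal tissue.

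**Figure D1:**
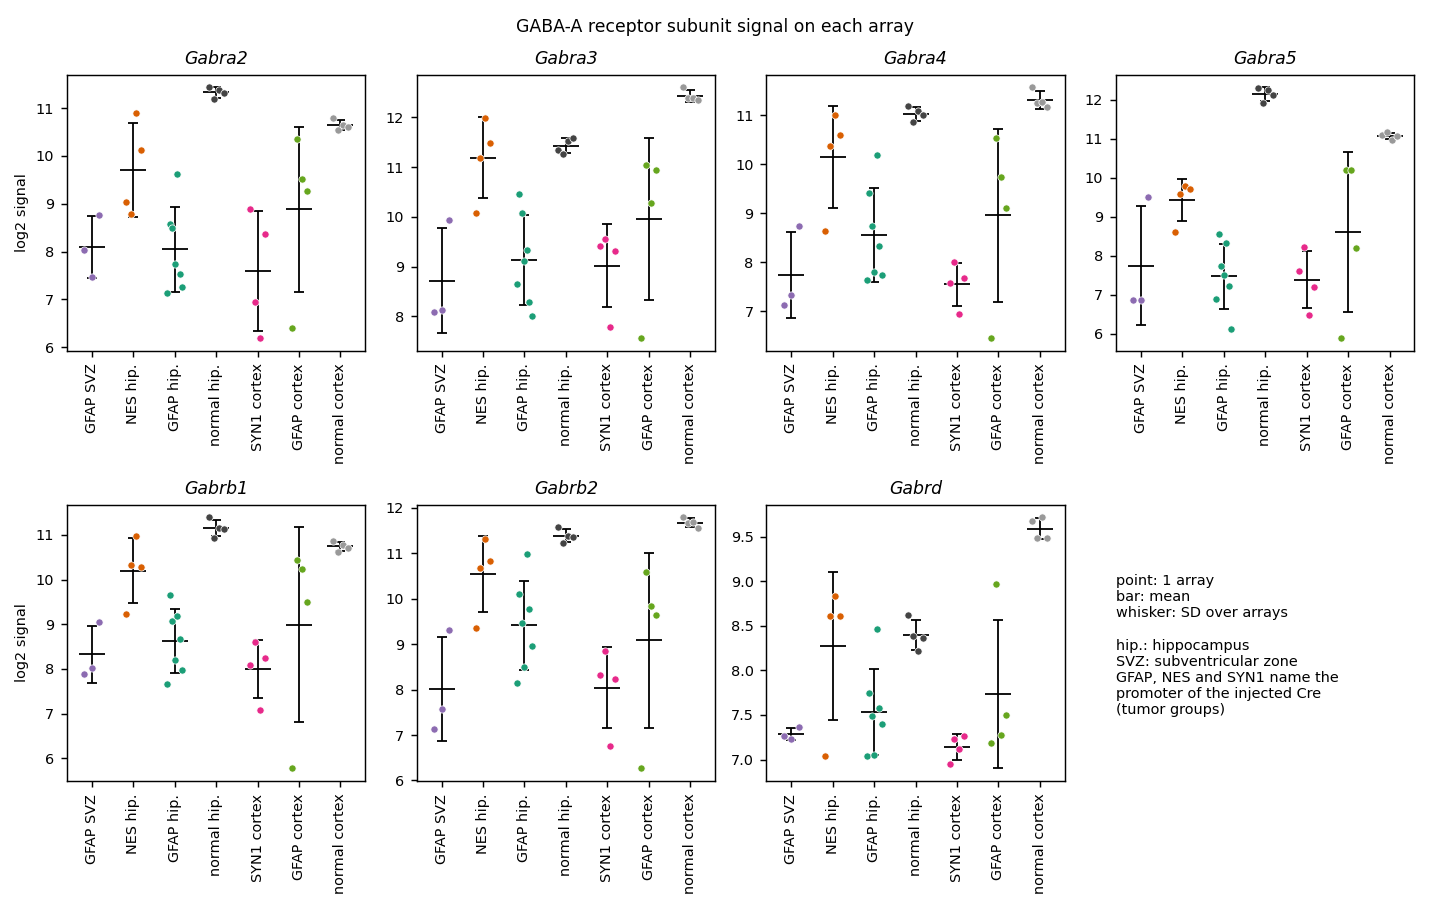
Log2 signal of each subunit (vertical axis) on every array, by group (horizontal axis), where points are arrays, bars group means and whiskers SD over arrays. Normal arrays sit close together and most tumor arrays spread below them, NES arrays reach the normal hippocampus range for Gabra3, Gabra4, Gabrb1, Gabrb2 and Gabrd, and the lowest GFAP cortex point in every panel is tumor 1.

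Gabra2 encodes alpha2, a synaptic subunit found at the axon initial segment. Its log2 signal was 8.90, 6.94, 6.19 and 8.36 in SYN1 cortex tumors and 6.40, 10.36, 9.51 and 9.27 in GFAP cortex tumors, against 10.79, 10.54, 10.65 and 10.60 in normal cortex. Every cortex tumor lay below every normal cortex array, GFAP tumor 2 by little. Relative to normal cortex the signal was 8.27-fold lower in SYN1 tumors (log2 difference -3.05 ± 0.65 SE, limma adjusted p = 0.000484) and 3.39-fold lower in GFAP tumors (-1.76 ± 0.65 SE, adjusted p = 0.0446). Without GFAP cortex tumor 1 the GFAP difference was -0.93 and no longer passed (adjusted p = 0.239). In the hippocampus the signal was 9.04, 8.79, 10.91 and 10.13 in NES tumors and 7.14 to 9.61 (median 7.75) in GFAP tumors, against 11.44, 11.19, 11.37 and 11.31 in normal tissue. Both tumor groups lay wholly below normal hippocampus. GFAP tumors were 9.70-fold lower (-3.28 ± 0.58 SE, adjusted p = 7.9e-05), and the NES difference of -1.61 ± 0.65 SE did not pass (adjusted p = 0.134). Group means were highest in normal hippocampus and then in normal cortex, and from normal cortex downward each group overlapped the next.

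Gabra3 encodes alpha3, which is carried by the X chromosome and found in monoaminergic, cortical and thalamic reticular neurons. Signals were 9.42, 9.56, 7.78 and 9.31 in SYN1 cortex tumors and 7.56, 11.04, 10.28 and 10.94 in GFAP cortex tumors, against 12.61, 12.38, 12.39 and 12.34 in normal cortex. No tumor reached the lowest normal cortex array. Gabra3 was 10.6-fold lower in SYN1 tumors (-3.41 ± 0.61 SE, limma adjusted p = 7.09e-05) and 5.55-fold lower in GFAP cortex tumors (-2.47 ± 0.61 SE, adjusted p = 0.00359, and -1.67 with adjusted p = 0.0237 without tumor 1). NES tumors of the hippocampus had 10.07, 11.18, 11.99 and 11.49, and GFAP tumors 8.01 to 10.47 (median 9.11), against 11.35, 11.27, 11.52 and 11.58 in normal hippocampus. The NES arrays lay on both sides of the normal ones, and the GFAP arrays all lay below. The NES difference was -0.24 ± 0.61 SE (adjusted p = 0.857), and GFAP tumors were 4.90-fold lower (-2.29 ± 0.54 SE, adjusted p = 0.00141). This subunit was highest in normal cortex, followed without overlap by normal hippocampus, and all lower neighbours overlapped.

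Gabra4 encodes alpha4, which pairs with delta outside synapses in the dentate gyrus and thalamus. The SYN1 cortex tumors had 7.58, 8.0, 6.95 and 7.67 and the GFAP cortex tumors 6.46, 10.53, 9.75 and 9.10, against 11.57, 11.24, 11.26 and 11.17 in normal cortex. SYN1 tumors were tightly grouped and low, and GFAP tumors were spread between them and normal tissue except for tumor 1. The fall was 13.5-fold in SYN1 tumors (-3.76 ± 0.63 SE, limma adjusted p = 3.31e-05) and 5.11-fold in GFAP tumors (-2.35 ± 0.63 SE, adjusted p = 0.00627, and -1.52 with adjusted p = 0.0426 without tumor 1). In the hippocampus, NES tumors had 8.65, 10.36, 11.01 and 10.59 and GFAP tumors 7.65 to 10.18 (median 8.34), against 11.18, 10.85, 11.09 and 10.99 in normal tissue. NES tumor 3 reached the normal range and the GFAP tumors did not. GFAP tumors were 5.56-fold lower (-2.48 ± 0.56 SE, adjusted p = 0.00091), and the NES difference was -0.88 ± 0.63 SE (adjusted p = 0.444). Each group overlapped its neighbour in the order of means, from normal cortex down to SYN1 cortex tumors.

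Gabra5 encodes alpha5, which carries sustained inhibition in hippocampal pyramidal cells. Its signal was 8.62, 9.59, 9.79 and 9.72 in NES hippocampus tumors and 6.14 to 8.57 (median 7.50) in GFAP hippocampus tumors, against 12.30, 11.91, 12.26 and 12.12 in normal hippocampus. The 3 groups did not overlap: normal tissue was highest, NES tumors were intermediate and GFAP tumors lowest. The fall was 25.4-fold in GFAP tumors (-4.67 ± 0.60 SE, limma adjusted p = 1.84e-06), the largest of the 7 members in any group compared with normal tissue. It was 6.59-fold in NES tumors (-2.72 ± 0.68 SE, adjusted p = 0.0115), and the NES call was lost without NES tumor 1 (-2.45, adjusted p = 0.0632, with 1.09% of genes then called lower). In the cortex the signal was 7.61, 8.24, 6.50 and 7.21 in SYN1 tumors and 5.89, 10.21, 10.20 and 8.19 in GFAP tumors, against 11.11, 11.17, 10.97 and 11.07 in normal tissue. All cortex tumors lay below normal cortex. SYN1 tumors were 12.9-fold lower (-3.69 ± 0.68 SE, adjusted p = 9.84e-05) and GFAP tumors 5.49-fold lower (-2.46 ± 0.68 SE, adjusted p = 0.00809), a call lost without tumor 1 (-1.55, adjusted p = 0.0557). Normal hippocampus exceeded normal cortex, which exceeded NES tumors, without overlap, and the lower neighbours overlapped.

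Gabrb1 encodes beta1. SYN1 cortex tumors had 8.09, 8.60, 7.09 and 8.25 and GFAP cortex tumors 5.78, 10.44, 10.24 and 9.49, against 10.87, 10.63, 10.78 and 10.70 in normal cortex. GFAP tumors 2 and 3 came close to the normal range, and tumor 1 lay far below every other array. The signal was 6.66-fold lower in SYN1 tumors (-2.74 ± 0.64 SE, limma adjusted p = 0.00109) and 3.38-fold lower in GFAP tumors (-1.76 ± 0.64 SE, adjusted p = 0.0399). Without tumor 1 the GFAP difference was -0.69 (adjusted p = 0.235) and was not called. In the hippocampus, NES tumors had 9.23, 10.32, 10.97 and 10.27 and GFAP tumors 7.66 to 9.64 (median 8.68), against 11.39, 10.93, 11.16 and 11.13 in normal tissue. Again NES tumor 3 reached the normal range and the GFAP tumors did not. GFAP tumors were 5.73-fold lower (-2.52 ± 0.56 SE, adjusted p = 0.0009), and the NES difference was -0.96 ± 0.64 SE (adjusted p = 0.406). Normal hippocampus was highest and did not overlap normal cortex, and every lower neighbour in the order overlapped.

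Gabrb2 encodes beta2, a subunit common at cortical synapses. Its signal was 8.31, 8.85, 6.77 and 8.23 in SYN1 cortex tumors and 6.26, 10.59, 9.83 and 9.64 in GFAP cortex tumors, against 11.79, 11.66, 11.68 and 11.55 in normal cortex. All 8 cortex tumors lay below normal cortex. It was 12.4-fold lower in SYN1 tumors (-3.63 ± 0.68 SE, limma adjusted p = 0.000119) and 6.01-fold lower in GFAP tumors (-2.59 ± 0.68 SE, adjusted p = 0.00575, and -1.65 with adjusted p = 0.0378 without tumor 1). In the hippocampus the signal was 9.35, 10.68, 11.32 and 10.82 in NES tumors and 8.13 to 10.97 (median 9.47) in GFAP tumors, against 11.57, 11.23, 11.38 and 11.35 in normal tissue. GFAP tumor 5 came nearest to normal tissue within its group, and NES tumor 3 was within the normal range. GFAP tumors were 3.92-fold lower (-1.97 ± 0.60 SE, adjusted p = 0.0107), and the NES difference was -0.84 ± 0.68 SE (adjusted p = 0.507). All 3 probe sets of Gabrb2 were called lower in SYN1 cortex, GFAP cortex and GFAP hippocampus tumors, with differences of -4.15 to -3.63, -2.98 to -2.50 and -2.78 to -1.97, and none in NES tumors. Neighbouring groups overlapped throughout the order of means.

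Gabrd encodes delta, the subunit of extrasynaptic receptors sensitive to neurosteroids. SYN1 cortex tumors had 6.95, 7.23, 7.12 and 7.27 and GFAP cortex tumors 7.19, 8.97, 7.28 and 7.50, against 9.68, 9.49, 9.72 and 9.48 in normal cortex. Apart from GFAP tumor 2, the cortex tumors were close together, near the array medians, and far below normal cortex. The signal was 5.46-fold lower in SYN1 tumors (-2.45 ± 0.34 SE, limma adjusted p = 3.69e-06) and 3.62-fold lower in GFAP tumors (-1.86 ± 0.34 SE, adjusted p = 0.000313, and -1.68 with adjusted p = 0.00205 without tumor 1). In the hippocampus, NES tumors had 7.04, 8.61, 8.83 and 8.61 and GFAP tumors 7.04 to 8.46 (median 7.48), against 8.62, 8.39, 8.22 and 8.36 in normal tissue. Gabrd was the member whose GFAP hippocampus tumors overlapped normal tissue, through tumor 5. GFAP tumors were 1.82-fold lower (-0.86 ± 0.30 SE, adjusted p = 0.0226), and this call was lost without normal hippocampus array 1 (-0.79, adjusted p = 0.0683) and under quantile normalization (-0.73, adjusted p = 0.0583). The NES difference was -0.12 ± 0.34 SE (adjusted p = 0.869). Normal cortex was highest, without overlap with normal hippocampus, and the lower neighbours overlapped.

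Separation of whole groups followed the same pattern. In SYN1 cortex tumors all arrays lay below all normal ones for 7 of 7 members (25.9% of all genes did so), in GFAP cortex tumors for 7 (23.9%), in GFAP hippocampus tumors for 6 (17.8%) and in NES hippocampus tumors for 2, Gabra2 and Gabra5 (11%). Without GFAP cortex tumor 1, 4 members were called lower in GFAP cortex tumors (13.2%). With tumors 1 to 4 alone in the GFAP hippocampus group, 7 were called lower in GFAP hippocampus tumors (22%). With GFAP cortex tumor 1 and GFAP hippocampus tumors 5 to 7 all left out, lower calls numbered 7 in SYN1 cortex tumors (25.6%), 5 in GFAP cortex tumors (20.5%), 7 in GFAP hippocampus tumors (26.4%) and 2 in NES hippocampus tumors, Gabra2 and Gabra5 (8.2%).

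**Figure D2:**
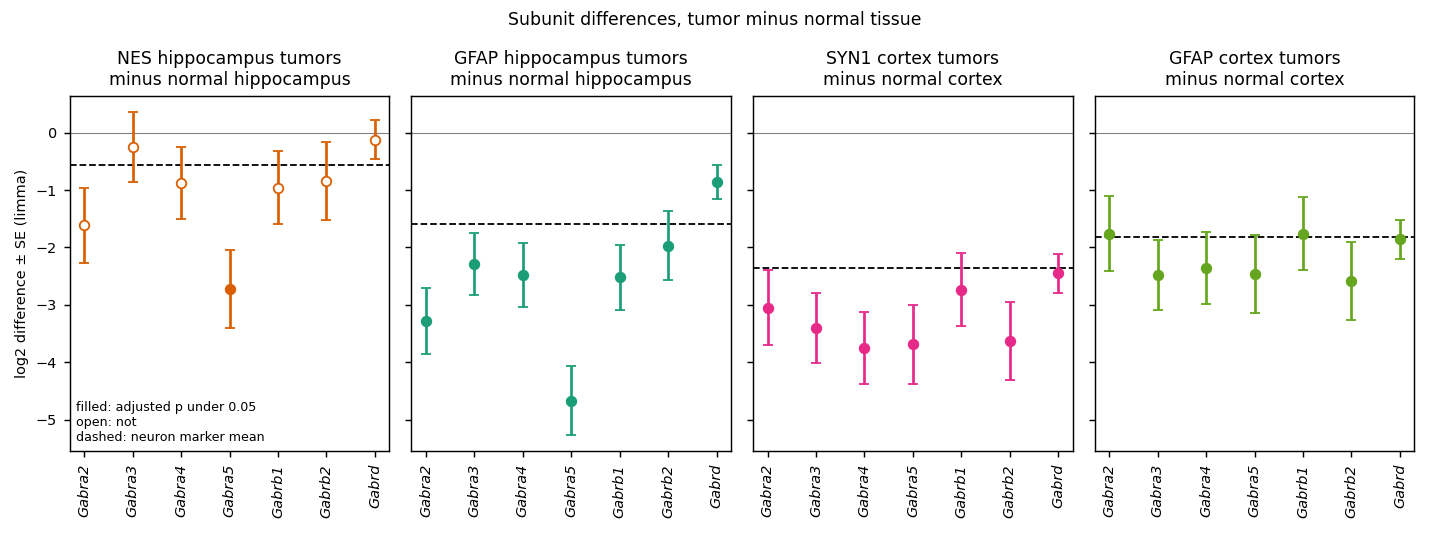
Log2 difference between tumors and normal tissue of the same region (vertical axis) for each subunit (horizontal axis), with standard errors from limma, filled where the adjusted p was under 0.05. The dashed line is the difference of the mean of 10 neuron markers. For GFAP cortex tumors it includes tumor 1, the lowest array of its group for these markers. Gabra5 in GFAP hippocampus tumors is the lowest point at -4.67, and in NES tumors Gabra5 is the filled point.

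GFAP tumors of the SVZ held the subunits at levels within those of the other GFAP tumors, for Gabra4 and Gabrb2 only through GFAP cortex tumor 1: the lowest other GFAP arrays were at 7.65 and 8.13, above SVZ tumors 1 and 2. Signals were 8.04, 7.47 and 8.76 for Gabra2, 8.09, 8.13 and 9.94 for Gabra3, 7.14, 7.33 and 8.74 for Gabra4, and 6.87, 6.88 and 9.51 for Gabra5. The beta and delta subunits had 7.89, 8.03 and 9.05 (Gabrb1), 7.14, 7.58 and 9.31 (Gabrb2) and 7.27, 7.23 and 7.36 (Gabrd). SVZ tumor 3 was the highest of the 3 arrays for every member. With no normal SVZ there is no test, and every SVZ array lay below all 8 normal arrays of cortex and hippocampus for 7 of 7 members, as for 23.2% of all genes. limma called 0 members between SVZ and cortex GFAP tumors (0.00502% of genes called, and 0 members at an unadjusted p under 0.05), where the differences ran from -1.24 (Gabra3) to -0.45 (Gabrd). Without GFAP cortex tumor 1 that comparison called 3 members lower (2.08% of genes), Gabra3 (-2.03, adjusted p = 0.0488), Gabra4 (-2.06, adjusted p = 0.0493) and Gabrb1 (-1.73, adjusted p = 0.0426). With GFAP hippocampus tumors 5 to 7 left out too, 5 were called lower (7.1%). Between SVZ and hippocampus GFAP tumors it called 0 members (0.316%), with 1 at an unadjusted p under 0.05, Gabrb2, at -1.40 (95% interval -2.77 to -0.04).

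Whether subunits differed from normal tissue by the same amount as neuron markers was measured as the log2 signal of each subunit minus the mean of 10 neuron markers on the same array. That marker mean differed from normal tissue by -2.35 in SYN1 cortex tumors, -1.83 in GFAP cortex tumors, -1.60 in GFAP hippocampus tumors and -0.56 in NES hippocampus tumors, and limma called 8, 8, 8 and 0 of the 10 markers lower in that order. The GFAP cortex value leans on tumor 1, whose neuron mean was 8.44, against 11.35, 11.16 and 10.80 in tumors 2 to 4. Gabra5 showed the largest departure from the neuron mean. Relative to the neuron mean it was -3.01 ± 0.33 (SD, n = 7) in GFAP hippocampus tumors and 0.06 ± 0.04 (n = 4) in normal hippocampus, a difference of -3.07 (two-sided exact permutation p = 0.00606, the smallest that 7 against 4 arrays allow). In NES tumors it was -2.10 ± 0.26 (SD, n = 4), a difference of -2.16 from normal hippocampus (exact permutation p = 0.0286, the smallest for 4 against 4, adjusted p = 0.0707). All arrays of both tumor groups lay below all normal ones on this scale.

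Other subunits departed less from the neuron mean in GFAP hippocampus tumors, and Gabrd departed the other way. Relative to it Gabra2 differed by -1.68, with means of -2.45 ± 0.44 in tumors and -0.76 ± 0.05 in normal hippocampus (SD, n = 7 and n = 4, exact permutation p = 0.00606). Gabrb1 differed by -0.92, with -1.86 ± 0.35 in tumors and -0.94 ± 0.10 in normal tissue (SD, exact permutation p = 0.00606). Gabrd differed by 0.74, with -2.96 ± 0.40 in tumors and -3.69 ± 0.21 in normal tissue (SD, exact permutation p = 0.00606), so its difference from normal tissue was smaller than that of the neuron markers. Gabrd averaged only 8.40 in normal hippocampus and had a median of 7.48 in these tumors, near the array medians of 7.03 to 7.30. It had little room to fall, and whether this limited its difference was not tested. These and Gabra5 were the 4 of 28 tests with a Benjamini-Hochberg adjusted exact permutation p of 0.0424. Tests of 4 against 4 arrays at their smallest exact permutation p of 0.0286 had an adjusted p of 0.0707. With as few tests at or below that p as here, none of those could pass, however large its difference. The passing tests therefore do not rank the tumor groups. Gabra4 (-0.88, exact permutation p = 0.0303), Gabra3 (-0.70, p = 0.0424 before adjustment) and Gabrb2 (-0.37, p = 0.333) also departed downward and did not pass after adjustment. With GFAP hippocampus tumors 1 to 4 alone, a setting added after the data were seen, the 4 differences were -2.97 (Gabra5), -1.84 (Gabra2), -1.0 (Gabrb1) and 0.44 (Gabrd). Gabra4 (-1.13) and Gabrb2 (-0.83) then also separated fully from normal tissue (exact permutation p = 0.0286, as for those 4). Gabra3 did not (-0.35, exact permutation p = 0.2).

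Relative to the neuron mean, 4 subunits were lower on every SYN1 cortex tumor array than on any normal cortex array. The difference was -1.41 for Gabra4 (exact permutation p = 0.0286), and the differences for Gabra5, Gabrb2 and Gabra3 were -1.34, -1.28 and -1.06 at the same p. In GFAP cortex tumors Gabrb2 reached that p with a difference of -0.76, which was -0.49 without tumor 1, and in NES hippocampus tumors Gabra2 did with -1.05. The adjusted exact permutation p of these was 0.0707. For Gabra2 and Gabrb1 in GFAP cortex tumors the departures were 0.07 each, and for Gabrd -0.03, but these rest on tumor 1. Without it they were 0.23 (Gabra2, exact permutation p = 0.4), 0.47 (Gabrb1, exact permutation p = 0.0571, the smallest for 3 against 4) and -0.52 (Gabrd, exact permutation p = 0.286).

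**Figure D3:**
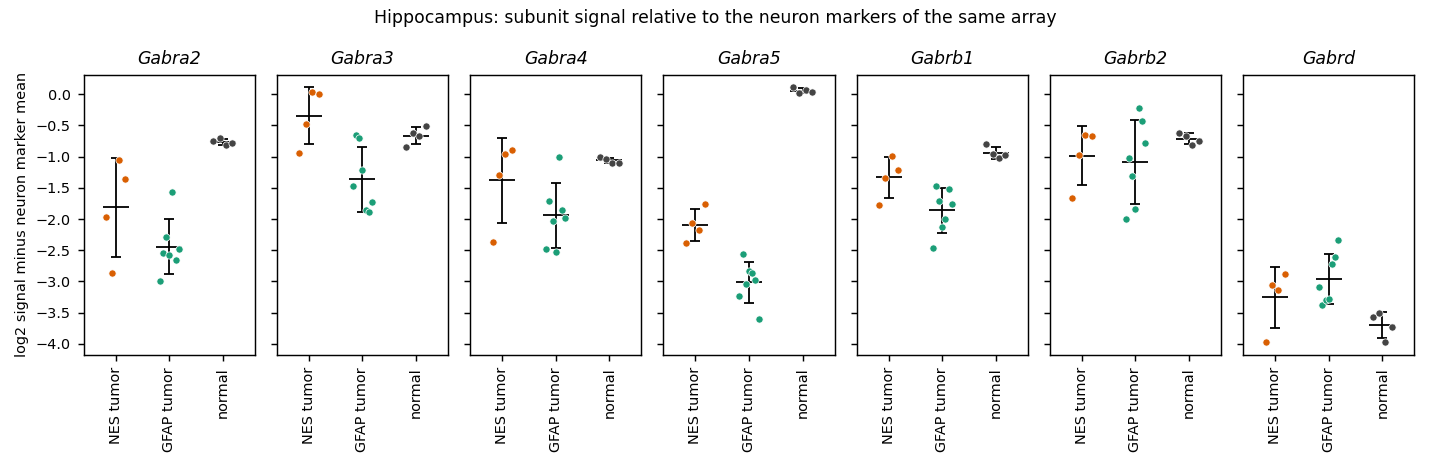
Log2 signal of each subunit minus the mean of 10 neuron markers on the same array (vertical axis) in NES tumors, GFAP tumors and normal tissue of the hippocampus, where points are arrays, bars group means and whiskers SD. Gabra5 lies near 0 in normal hippocampus, and its means were -2.10 in NES tumors, -3.01 in GFAP tumors and 0.06 in normal tissue.

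Tumors of different promoters at the same site were compared directly. In the cortex all 7 members were lower in SYN1 than in GFAP tumors, by -1.41 (Gabra4) to -0.59 (Gabrd), and limma called 0 of them (0.176% of genes called in either direction, 1 member at an unadjusted p under 0.05). The adjusted p lay between 0.3 and 0.483, and the 95% interval of Gabra4 ran from -2.69 to -0.12. GFAP cortex tumor 1, which had the lowest signal of its group for each member, bore on this: without it limma called 6 of 7 members lower in SYN1 tumors (4.51% of genes called lower). The differences were then -2.24 for Gabra4 (adjusted p = 0.0241), -2.14 for Gabra5 (0.0327), -2.12 for Gabra2 (0.0336), -2.05 for Gabrb1 (0.0217), -1.98 for Gabrb2 (0.0388) and -1.73 for Gabra3 (0.0492), and Gabrd at -0.77 did not pass (0.217). With GFAP hippocampus tumors 5 to 7 left out as well, which changes only the pooled spread here, 6 were called lower (7.77%). Neuron markers moved likewise without that array, with 5 of 10 called lower in SYN1 tumors.

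Between NES and GFAP tumors of the hippocampus limma called 2 of 7 members higher in NES tumors (6.12% of genes called higher), Gabra3 by 4.13-fold (2.05 ± 0.54 SE, adjusted p = 0.0268) and Gabra5 by 3.86-fold (1.95 ± 0.60 SE, adjusted p = 0.046). Only for Gabra5 did all NES arrays exceed all GFAP arrays (0.983% of genes). The other differences were 1.67 (Gabra2), 1.60 (Gabra4), 1.56 (Gabrb1), 1.13 (Gabrb2) and 0.74 (Gabrd), with adjusted p from 0.0671 to 0.223. NES tumor 1 was the lowest array of its group for 6 members, and without it limma called 6 members higher, all but Gabrb2 (12.7% of genes), with differences of 1.15 (Gabrd) to 2.42 (Gabra3). Other arrays moved the count as much: limma called 0 members without NES tumor 2, 3 or 4 or GFAP hippocampus tumor 6 or 7, 4 without GFAP hippocampus tumor 2 and 5 without tumor 5 of that group or without GFAP cortex tumor 1, and leaving out several other arrays gave 1. With only the 11 arrays compared it called 0 members and 0 of all genes. With GFAP hippocampus tumors 1 to 4 alone limma called 0 (3.86% of genes called higher), with Gabra3 at 1.60 (adjusted p = 0.0773) and Gabra5 at 1.76 (adjusted p = 0.0876). When GFAP cortex tumor 1, which bears only on the pooled spread, was left out too, it called 7 members higher (10.4%). Excitatory neuron markers were higher in NES than in GFAP tumors for 4 of 6 genes, and their part in the subunit differences was not tested.

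Between GFAP tumors of the hippocampus and of the cortex limma called no member (0 of 7 called and 0 at an unadjusted p under 0.05, 2.68% of genes called). The differences, hippocampus minus cortex, ran from -1.14 for Gabra5 (95% interval -2.38 to 0.10) to 0.33 for Gabrb2. Without GFAP cortex tumor 1, limma called 4 members lower in the hippocampus tumors (2.67% of genes): Gabra5 (-2.05, adjusted p = 0.0237), Gabra2 (-1.66, 0.0493), Gabra3 (-1.62, 0.0396) and Gabrb1 (-1.42, 0.0277). With GFAP hippocampus tumors 5 to 7 left out too, 3 were called lower (2%). Same-numbered arrays of these groups deviated together, and the fit with the replicate number as a block also called 0 members, and 0 of all genes. The test of whether the tumor effect differed between regions called 0 members (0.838% of genes, 1 member lower and 1 higher at an unadjusted p under 0.05). The interaction was -2.21 ± 0.91 SE for Gabra5 (adjusted p = 0.332, and -3.12 with adjusted p = 0.0324 without GFAP cortex tumor 1) and 1.00 ± 0.45 SE for Gabrd (adjusted p = 0.409).

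Normal hippocampus and normal cortex held different subunit levels. Gabra5 averaged 12.15 ± 0.18 in hippocampus and 11.08 ± 0.08 in cortex, and Gabra2 averaged 11.33 ± 0.11 in hippocampus and 10.65 ± 0.11 in cortex (SD, n = 4 each). In the other direction, Gabra3 averaged 11.43 ± 0.15 in hippocampus and 12.43 ± 0.12 in cortex, and Gabrd 8.40 ± 0.17 in hippocampus and 9.59 ± 0.12 in cortex. The arrays of the regions did not overlap for 3 members that were higher in hippocampus, Gabra2, Gabra5 and Gabrb1 (6.3% of genes), and for 2 that were lower, Gabra3 and Gabrd (12%). With the spread pooled over all 7 groups, tumors included, limma called 0 members (1.29% of genes called, and 1 member, Gabrd, at an unadjusted p under 0.05). Fitted on the 8 normal arrays alone it called 6, with Gabra2, Gabra5 and Gabrb1 higher (4.92% of genes) and Gabra3, Gabrb2 and Gabrd lower (8.96%), and Gabra4 was not called (-0.28, adjusted p = 0.0834).

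**Figure D4:**
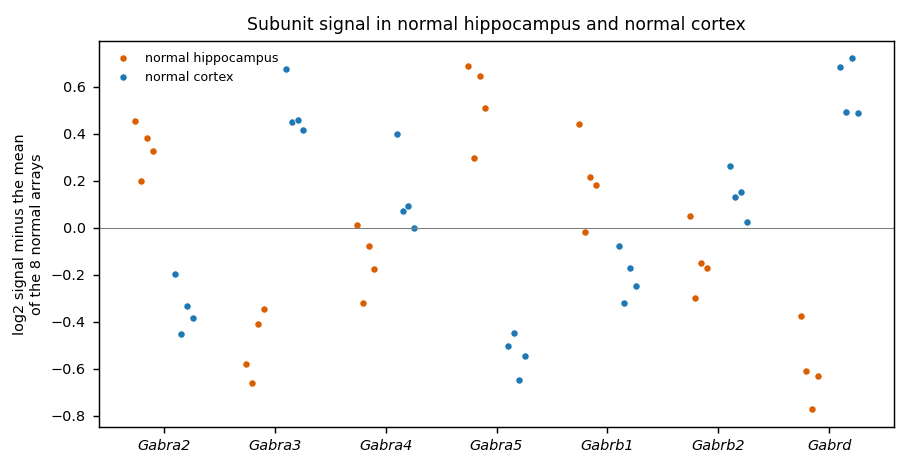
Log2 signal of each subunit on the 4 arrays of normal hippocampus and the 4 of normal cortex, minus its mean over these 8 arrays (vertical axis), where each point is an array. Gabra5 and Gabra2 are higher in hippocampus and Gabra3 and Gabrd in cortex, each without overlap.

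Few of the other measured GABA-A subunits passed the test. Their mean log2 signal was already low in normal tissue, 7.02 in cortex and 6.92 in hippocampus, below the lowest array median of 7.03. That mean does not hold for every gene: Gabrg3 was at 10.71 to 10.92 in normal cortex and 10.04 to 10.27 in normal hippocampus. A gene near that mean has little room to fall, so the absence of a lower call does not show that it was kept. Of the 9 genes of this list, limma called 1 lower and 1 higher in SYN1 cortex tumors and none in GFAP cortex tumors. It called 1 lower and 1 higher in GFAP hippocampus tumors and 1 higher in NES hippocampus tumors. Gabrg1, a gamma subunit, had 7.14, 7.41, 6.19 and 6.58 in SYN1 cortex tumors, against 9.07, 9.01, 8.98 and 8.93 in normal cortex (-2.17, adjusted p = 0.00196), with no overlap. It was also lower in GFAP hippocampus tumors (-1.19, adjusted p = 0.0467), a call lost when those tumors 5 to 7 and GFAP cortex tumor 1 were left out (-0.86, adjusted p = 0.102). Gabre, which encodes epsilon, had 7.78, 8.92, 9.18 and 7.52 in SYN1 cortex tumors, against 6.22, 6.42, 6.26 and 6.19 in normal cortex (2.08, adjusted p = 5.86e-05), and every SYN1 array exceeded normal cortex. It was also called higher in GFAP hippocampus tumors (0.85, adjusted p = 0.0378), where tumors 1 to 4 had 7.32 to 7.95 and tumors 5 to 7 had 6.37 to 6.62, against 5.97 to 6.58 in normal hippocampus. Without tumors 5 to 7 and GFAP cortex tumor 1 that difference was 1.36 (adjusted p = 0.000857). Gabrq, which encodes theta, had 6.39, 7.45, 8.98 and 7.33 in NES hippocampus tumors, against 5.87, 6.07, 5.94 and 5.74 in normal hippocampus (1.63, adjusted p = 0.00416). The remaining 6 genes (Gabra6, Gabrg3, Gabrp, Gabrr1, Gabrr2 and Gabrr3) were called in none of these 4 comparisons. Gabrg3, the bright one, spread widely: 7.93 to 10.90 in SYN1 cortex tumors and 7.05 to 10.77 in GFAP cortex tumors. It had 7.50 to 10.80 in GFAP hippocampus tumors and 9.70 to 10.92 in NES hippocampus tumors.

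Genes of GABA synthesis, transport and breakdown were lower for 7 of 7 in SYN1 cortex tumors (median -2.03), 5 of 7 in GFAP cortex tumors (-1.48), 3 of 7 in GFAP hippocampus tumors (-1.16) and 0 of 7 in NES hippocampus tumors (-0.12, and 0 at an unadjusted p under 0.05). Gad1, a GABA-synthesizing enzyme, differed by -2.71 (adjusted p = 0.000488), -1.82 (0.0193) and -1.62 (0.0134) in SYN1 cortex, GFAP cortex and GFAP hippocampus tumors. Without GFAP cortex tumor 1, 1 of 7 was called in GFAP cortex tumors, Slc6a13, a GABA transporter, and Gad1 at -1.23 was not (adjusted p = 0.112). Without that array and GFAP hippocampus tumors 5 to 7, 7 of 7 were called lower in GFAP hippocampus tumors. Gad1, Gad2 and Slc32a1 also stand in the list of interneuron markers, of which 7, 5, 5 and 0 of 9 were called lower in SYN1 cortex, GFAP cortex, GFAP hippocampus and NES hippocampus tumors.

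The GABA-B receptor list, which holds the metabotropic receptor and its Kctd partners, had 4 of 5 genes lower in SYN1 cortex (median -2.58), GFAP cortex (-1.90) and GFAP hippocampus tumors (-1.69), and 1 of 5 in NES tumors (-0.66). Gabbr2, the subunit that couples to G proteins, differed by -3.79 (adjusted p = 4.25e-05), -2.76 (0.00251) and -2.61 (0.000746) in SYN1 cortex, GFAP cortex and GFAP hippocampus tumors. In GFAP cortex tumors 3 of 5 were called when tumor 1 was left out (median -1.25), with Gabbr2 at -1.79 (0.0118). Kctd12 was the gene called in NES tumors (-0.63, adjusted p = 0.0425). It was also lower in GFAP hippocampus tumors (-1.01, adjusted p = 5.35e-05) and was not called in GFAP (-0.03) or SYN1 (-0.18) cortex tumors.

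Among 12 genes of the inhibitory postsynapse and receptor traffic, 10 were lower and 1 higher in SYN1 cortex tumors (median -1.37). Lower calls numbered 9 in GFAP cortex tumors (-1.11), 8 in GFAP hippocampus tumors (-1.24) and 2 in NES hippocampus tumors (-0.47). Gphn, which encodes gephyrin, differed by -1.63 (adjusted p = 0.000108), -1.16 (0.00554) and -1.56 (6.03e-05) in SYN1 cortex, GFAP cortex and GFAP hippocampus tumors. Slitrk3 and Shisa7, an adhesion protein of inhibitory synapses and an auxiliary subunit of the receptor, were the genes lower in NES tumors, by -1.52 (0.0427) and -1.40 (0.0391). Rdx, which encodes radixin, an anchor of alpha5 receptors outside synapses, was the gene higher in SYN1 tumors (0.54, adjusted p = 0.0291). Of the chloride transporters, Slc12a5, which exports chloride from mature neurons, differed by -3.32 (adjusted p = 6.65e-05), -2.28 (0.00509) and -1.65 (0.0132) in SYN1 cortex, GFAP cortex and GFAP hippocampus tumors. In GFAP cortex tumors other than tumor 1, 7 of 12 postsynaptic genes were called lower (median -0.81), Gphn differed by -0.82 (0.0385) and Slc12a5 by -1.59 (0.036). Slc12a2, which imports chloride, was not called in any of the 4 comparisons.

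Between NES and GFAP tumors of the hippocampus, 8 pathway genes beyond the members were called higher in NES tumors (6.12% of all genes). The pathway lists hold 9, 7, 5, 12 and 2 measured genes. The 8 were Gabrg1 (1.57), Gabrq (1.34), Gphn (1.01), Iqsec3 (1.47), Kctd16 (1.34), Nlgn2 (0.83), Shisa7 (1.30) and Slitrk3 (1.69), with limma adjusted p from 0.0209 to 0.0479. These calls are not firm: with only the arrays compared, 0 of all genes were called. Without NES tumor 3 or 4, limma called 6 and 5 of all genes higher. Nlgn2, an adhesion protein of inhibitory synapses, was not called when GFAP hippocampus tumors 5 to 7 and GFAP cortex tumor 1 were left out (0.34, adjusted p = 0.0557). Between SYN1 and GFAP cortex tumors none of the pathway genes was called, and 6 had an unadjusted p under 0.05. Without GFAP cortex tumor 1 limma called 1 of 9 other subunits, 1 of 7 genes of GABA synthesis, 3 of 5 of the GABA-B list and 4 of 12 postsynaptic genes lower in SYN1 tumors, among them Shisa7 (-1.66, adjusted p = 0.0218) and Slitrk3 (-1.78, adjusted p = 0.0218).

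Markers of other cells did not all move with the subunits. Endothelial markers averaged 8.91 in SYN1 cortex tumors, against 7.93 in normal cortex. Astrocyte markers averaged 10.65 in GFAP and 11.08 in NES hippocampus tumors, against 10.86 in normal hippocampus. In the cortex they averaged 9.70 in SYN1 and 10.02 in GFAP tumors, against 10.77 in normal tissue. The GFAP average was pulled down by tumor 1 at 7.70. Tumors 2 to 4 had 10.85, 11.02 and 10.50, against 10.65 to 10.86 in normal cortex. Oligodendrocyte precursor markers averaged 8.70 in GFAP and 9.49 in NES hippocampus tumors, against 8.87 in normal hippocampus. Excitatory neuron markers were lower for 6 of 6 genes in SYN1 cortex, GFAP cortex and GFAP hippocampus tumors and for 2 of 6 in NES tumors, where their mean signal was 8.91 to 10.33, against 11.14 to 11.49 in normal hippocampus. Oligodendrocyte markers were lower for 7, 7, 4 and 0 of 7 genes in SYN1 cortex, GFAP cortex, GFAP hippocampus and NES hippocampus tumors, and microglia and macrophage markers were higher for 6, 6, 7 and 7 of 8 in that order. GFAP cortex tumor 1 was also the lowest of its group for oligodendrocyte markers (7.04, others 8.84 to 9.93) and excitatory neuron markers (6.95, others 9.41 to 10.11). Normal cortex had 10.41 to 10.72 and 11.42 to 11.60. The part of these markers in the subunit results was not tested.

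**Figure D5:**
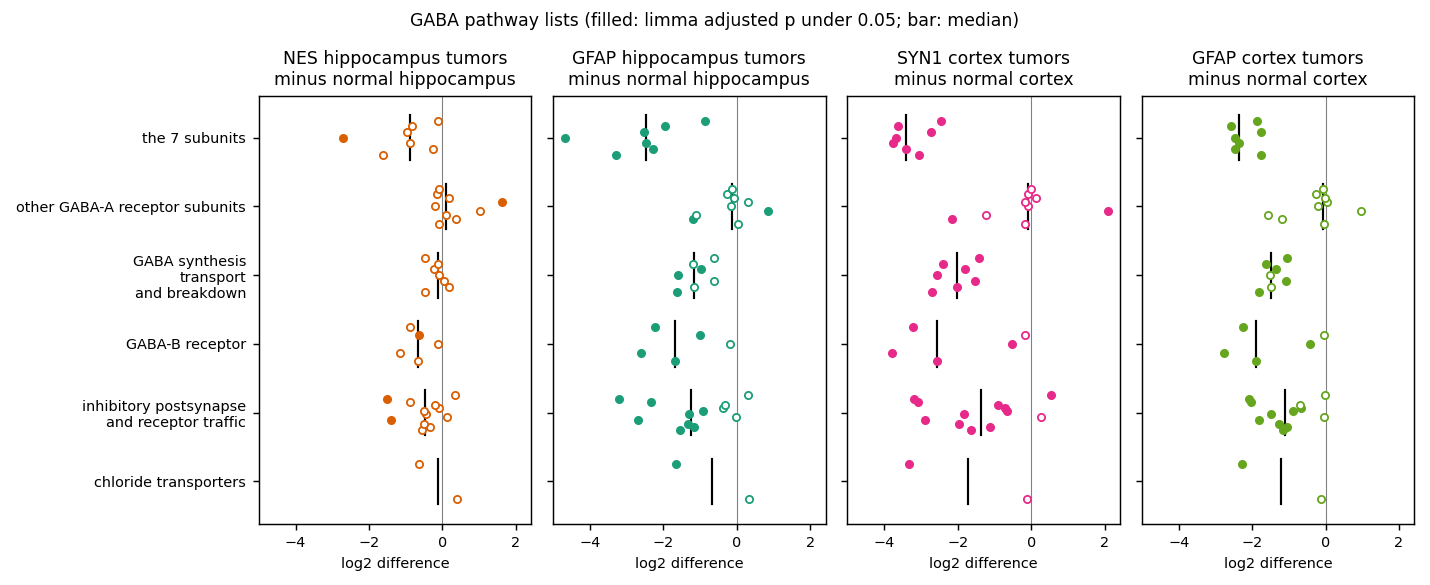
Log2 difference between tumors and normal tissue of the same region (horizontal axis) for every measured gene of each list, filled where the limma adjusted p was under 0.05, with the list median as a bar. The medians of the 7 subunits lie at -0.88, -2.48, -3.41 and -2.35 from the left panel to the right, and those of the other GABA-A receptor subunits near 0. The mean signal of those other subunits was already low in normal cortex (7.02) and normal hippocampus (6.92). Gabrg3 was not low, with 10.71 to 10.92 in normal cortex and 10.04 to 10.27 in normal hippocampus.

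The members did not vary alike over the 30 arrays. The SD of the log2 signal was lowest for Gabrd at 0.891 and highest for Gabra5 at 1.98. Likeness was measured as the root mean square difference of log2 signal over all 30 arrays after each gene's own mean was subtracted. Gabra4 and Gabrb2 were the closest pair of members (0.351) and Gabra5 and Gabrd the farthest (1.42). Outside the family, the 3 closest genes were Syp (0.247), Dnajc6 (0.253) and Frrs1l (0.277) for Gabrb2, and Amph (0.245), Syn2 (0.266) and Phyhipl (0.278) for Gabrb1. Syp is also 1 of the 10 neuron markers. Gabra4 was closest to Dnajc6 (0.258), Atp2b2 (0.271) and Kcnd2 (0.282), and Gabrd to Kcnf1 (0.234), Cabp1 (0.238) and Necab3 (0.251). Gabra3 was closest to Cacnb4 (0.334), Arhgap20 (0.343) and Rab33a (0.352). Gabra2 and Gabra5 had the most distant nearest genes, Ppfia2 (0.475), Sphkap (0.477) and Plppr4 (0.487) for Gabra2, and St6galnac5 (0.523), Mal2 (0.555) and Plppr4 (0.581) for Gabra5. The points of this measure share arrays, and groups weigh in it by their number of arrays.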

How the data were processed

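Per the labels' protocols, RNA was isolated with Trizol, labelled with the Ambion WT kit and hybridised to Affymetrix Mouse Gene 1.0 ST arrays. The deposited value table holds log2 signals of 35556 probe sets on 30 arrays. Affymetrix Power Tools, MAS5 and RMA are named per the submitters' processing notes, and the role of each and the normalization between arrays are not given in the sources used here. The platform annotation gave 21789 probe sets 1 symbol, 1621 several and 12146 none, and 21698 of the first matched a RefSeq gene ID. Probe sets with 1 symbol gave 19938 genes, by the probe set with the highest mean.

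limma 3.58.1 (R 4.3.3) fitted 7 group means over all 30 arrays, with eBayes and Benjamini-Hochberg adjustment over all genes of a contrast, called at an adjusted p under 0.05. The fit was tested on simulated data that gave a gene the same spread in every group. That test does not cover the unequal spread of the real groups. Exact permutation tests used scipy 1.17.1 and pandas 2.3.3 in Python 3.11.15. No 2 arrays held identical values. The text names the 7 members, the measured genes of the GABA pathway and marker lists, and the 3 genes most like each member. Members and lists were chosen with earlier results of these data known. Some genes of the pathway and marker lists are not reported here. The residuals of equally numbered GFAP hippocampus and GFAP cortex tumors 1 to 4 correlated at 0.277 to 0.306, which was taken as pairing from the data, not from the labels. In the other contrasts these correlations ran from -0.394 to 0.565 and were not so taken. Alternatives changed the scaling between arrays, the gene filter, the probe set, the variance prior, array weights, the arrays in the fit, the replicate block and the threshold. Their effect is given at the end. Array number limits the precision.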

Additional observations from a re-analysis of the deposited data

Results flagged for a closer look

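Among 42 groups of 4 to 7 arrays tested over the 7 subunits, 3 held an array far from the others, and chance alone gives about 1 in 20. Gabra3 in SYN1 cortex tumor 3 had a log2 signal of 7.78, against 9.31 to 9.56 in the other 3 arrays of the group. Gabra3 in normal cortex array 1 had 12.6, against 12.3 to 12.4 in the others. Gabrd in NES hippocampus tumor 1 had 7.04, against 8.61 to 8.83 in the others, and the same array had the lowest mean of neuron markers in its group, 11.01.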

How the results depend on the processing

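Counts of called members depended most on GFAP cortex tumor 1, on NES hippocampus tumor 1 and on how the spread was estimated, and no member changed direction under an alternative where it was called. Of the single-member results under alternatives, 3686 kept their side of the threshold, 102 gained a call and 104 lost one. Leaving out 1 array at a time gave 4 to 7 members lower in GFAP cortex tumors (7 in the fit of all arrays), 6 to 7 in GFAP hippocampus tumors (7), 7 in SYN1 cortex tumors (7) and 0 to 2 in NES hippocampus tumors (1). It gave 0 to 6 members between SYN1 and GFAP cortex tumors (0), 0 to 6 between NES and GFAP hippocampus tumors (2), 0 to 4 between hippocampus and cortex GFAP tumors (0), 0 to 3 between SVZ and cortex (0), 0 between SVZ and hippocampus (0), 0 to 1 between the normal regions (0), 0 to 1 for the interaction (0) and 0 to 4 for the differences relative to neuron markers (4), where fewer arrays raise the smallest p. Leaving out GFAP cortex tumor 1 gave 4 in GFAP cortex tumors, 6 between SYN1 and GFAP tumors, 4 between hippocampus and cortex, 3 between SVZ and cortex and 1 for the interaction (169 genes lower and 101 higher). Leaving out NES tumor 1 gave 0 in NES tumors and 6 between NES and GFAP tumors. Between NES and GFAP tumors 0 were called without NES tumor 2, 3 or 4 or GFAP tumor 6 or 7. With only the arrays of the groups compared, 4 members were called in GFAP cortex tumors (3054 genes lower), 2 in NES tumors (1057 lower, against 571 with all arrays), 0 between NES and GFAP tumors (0 genes either way) and 6 between the normal regions (1787 lower and 981 higher). Array weights raised the calls over all genes as well. They gave 5 in NES tumors (4100 genes lower) and 6 between SYN1 and GFAP tumors (1538 lower, against 5). Between NES and GFAP tumors they gave 7 (2851 higher, against 1220), and between hippocampus and cortex 2 (361 lower, against 88). Members were then also called in the comparisons with SVZ tumors, between the normal regions and for the interaction. Leaving out GFAP cortex tumor 1 and GFAP hippocampus tumors 5 to 7 gave 2 in NES tumors (1634 genes lower) and 6 between SYN1 and GFAP tumors (1549 lower). It gave 7 between NES and GFAP tumors (2073 higher), 3 between hippocampus and cortex (398 lower) and 5 between SVZ and cortex (1416 lower). Members were then also called between the normal regions and for the interaction. With GFAP hippocampus tumors 1 to 4 alone 0 were called between NES and GFAP tumors. Median centring gave 2 in NES tumors, quantile normalization 1 between NES and GFAP tumors, and a threshold of 0.01 gave 0 in both comparisons and 5 each in GFAP cortex and GFAP hippocampus tumors (2316 and 3434 genes lower). Quantile normalization gave 5 in GFAP cortex tumors, without Gabra2 (adjusted p = 0.0684) and Gabrb1 (adjusted p = 0.0661), and 6 in GFAP hippocampus tumors, without Gabrd. With the replicate number as a block, 2 members were called in GFAP cortex tumors (1649 genes lower) and 2 in NES tumors (649 lower). Between NES and GFAP tumors 6 were called (1030 higher), and members were also called between the normal regions. The block changed no member's call between hippocampus and cortex GFAP tumors, where it called 0 of all genes. Counts of members with no count or share over all genes beside them describe the setting and are not read as results about the members. The cause was not tested, except that fewer arrays or a spread pooled over other groups follow from the settings themselves.

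Scaling moved the split of lower and higher calls over all genes: from 3742 and 1794 to 3255 and 2831 (quantile) in GFAP cortex tumors, from 571 and 1135 to 1461 and 955 (centred) or 1003 and 1260 (quantile) in NES tumors, and from 417 and 1220 to 1515 and 731 (centred) or 1267 and 883 (quantile) between NES and GFAP tumors. Between hippocampus and cortex GFAP tumors it was 88 and 446, then 47 and 881 or 56 and 85, between SVZ and cortex 0 and 1, then 6 and 47 or 14 and 15, between SVZ and hippocampus 33 and 30, then 60 and 85 (quantile), and for the interaction 99 and 68, then 88 and 112 (centred).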
